A study of Mus musculus with 12 samples.

Results

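The genes described here encode 10 integrin subunits of epithelium and stroma, *Itga1*, *Itga2*, *Itga3*, *Itga5*, *Itga6*, *Itgav*, *Itgb1*, *Itgb4*, *Itgb5* and *Itgb6*. They were chosen by name, and all 10 were found among the 54532 genes in each of 2 RNA-seq tables. These genes and the further gene lists were chosen with earlier results of these data known. Their shares beside those of all tested genes are therefore descriptions. The study asked what loss of ieCtnnb1, an intestinal enhancer upstream of *Ctnnb1*, does to the intestinal epithelium and its tumors. RNA of adult mice was profiled in 12 libraries, 3 in each of 4 groups. Crypts of the small intestine came from wild-type mice and from mice homozygous for a deletion of the enhancer (ieCtnnb1KO). Colon tumors came from APCmin/+ mice and from APCmin/+;ieCtnnb1KO mice, so that both tumor groups carry the *Apc* nonsense allele, and no group was treated. The deletion is in the germ line and therefore present in epithelium and stroma alike. Crypts were released with EDTA and passed through a filter, whereas tumors were taken as tissue. The sources used here do not say where along the colon each tumor lay.

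Integrins are receptors of an alpha and a beta chain that span the cell membrane and tie the cytoskeleton to the extracellular matrix. The beta chain of *Itgb1* pairs with many alpha chains, among them the collagen receptors of *Itga1* and *Itga2*, the laminin receptors of *Itga3* and *Itga6* and the fibronectin receptor of *Itga5*. The chain of *Itgb4* pairs with that of *Itga6* to anchor epithelium on laminin at hemidesmosomes, and the chain of *Itgav* pairs with those of *Itgb5* and *Itgb6* to bind vitronectin, fibronectin and latent TGF-beta.

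Values are FPKM, fragments per length of gene relative to a size of the library, so that the levels of different genes within a table can be compared. From 14457896 to 16156712 fragments lay on genes in the 12 libraries. The sizes that the FPKM imply did not follow these totals. Wild-type crypts 1 had 14457896 fragments and an implied size of 15481400, and wild-type crypts 2 had 16042558 and 15291300. The median ratio over genes was 1.00726 in every crypt library and 1.00454 in every tumor library. The FPKM as deposited were thus already scaled to a common median ratio within each table. The integrin genes were well covered in tumors, with 493 to 10375 fragments per gene and library, and less so in crypts, with 36 fragments of *Itga5* in the lowest library. Tests were run with limma on log2(FPKM + 0.5), a scale on which fold changes of weakly expressed genes come out too small. They covered the 14176 crypt genes and 16743 tumor genes whose mean FPKM reached 0.5. All 10 integrin genes passed this limit in both tissues. The 2 tables were normalized separately, so no test was made between tissues.

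Some libraries stood apart from the rest. Genes of the stomach lining (*Gkn1*, *Gkn2*, *Tff1*, *Tff2*, *Muc5ac* and *Gif*) summed to an FPKM of 143 and 77.7 in wild-type crypts 1 and 2, to 2.01 in wild-type crypts 3, and to 0.545, 3.37 and 0.122 in the knockout crypts. Wild-type crypts 3 had an FPKM of 32836 for the Paneth cell defensin *Defa24*, against 7359 to 10163 in the other 5 crypt libraries. In tumors, number 3 of each genotype expressed *Xist* (FPKM 114 and 61.4), while the other 4 expressed Y-linked genes. *Hoxd13*, a gene of the hindmost gut, had an FPKM of 0.0746, 65.7 and 63.0 in APCmin/+ tumors 1, 2 and 3 and of 2.85, 0.176 and 42.5 in knockout tumors 1, 2 and 3. The libraries high in *Hoxd13* were thus 2 of 3 controls and 1 of 3 knockouts. *Cdx2*, an intestinal transcription factor gene, split the libraries the same way, with 10.2, 7.45 and 26.5 FPKM in those low in *Hoxd13* and 2.22, 2.01 and 4.17 in those high in it. *Hoxb13*, another gene of the hindmost gut, was lower in the *Hoxd13*-low libraries within each genotype but not across genotypes (FPKM 70.1, 99.2 and 93.2 in controls and 108, 82.7 and 128 in knockouts), and what sets these libraries apart was not tested.

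The targeted gene was read before the integrins. *Ctnnb1*, which encodes beta-catenin, had an FPKM of 121, 134 and 123 in wild-type crypts and 102, 104 and 105 in knockout crypts. In tumors its FPKM was 299, 363 and 358 in the controls and 279, 248 and 250 in the knockouts. The groups did not overlap in either tissue, with every knockout library below every control library. The log2 fold change was -0.28 in crypts (standard error 0.118) and -0.39 in tumors (standard error 0.128). Neither passed adjustment (limma with Benjamini-Hochberg, adjusted p = 0.849 and 0.303).

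Crypts and tumors shared the broad order of integrin levels. In wild-type crypts *Itgb1* was highest, at a mean FPKM of 52.4, followed by *Itga6* (34.9), *Itga3* (28.8) and *Itgb4* (25.1). *Itga2* (7.59) and *Itgb5* (6.27) came next, and *Itgb6*, *Itga1*, *Itgav* and *Itga5* had mean FPKM between 1.35 and 2.17. The ranges over libraries of *Itgb1* and *Itga6*, of *Itgb4* and *Itga2*, and of *Itgb5* and *Itgb6* did not overlap, while all other neighbors in this order overlapped. The crypt libraries were thus led by the laminin receptor chains and their partner *Itgb1*. In APCmin/+ tumors the order was *Itgb1* (mean FPKM 144), *Itga6* (67.7), *Itgb4* (60.2), *Itga3* (32.5), *Itgb5* (21.8), *Itga5* (19.1), *Itgav* (15.0), *Itga2* (11.8), *Itgb6* (5.43) and *Itga1* (3.33). Only *Itgb5* and *Itga5*, and *Itgav* and *Itga2*, overlapped with each other among neighbors. Set side by side with no test, *Itga5* was last of the 10 in control crypts and sixth in control tumors. Markers of stroma also differed between the tables. The summed FPKM of 8 fibroblast markers was 7.55 to 15.3 in the crypt libraries and 368 to 624 in the tumor libraries. All 5 smooth muscle markers (*Acta2*, *Myh11*, *Tagln*, *Des* and *Cnn1*) and 4 of 5 endothelial markers (*Cdh5*, *Kdr*, *Tek* and *Emcn*) were below a mean FPKM of 0.5 in crypts. Stroma, organ, tumor state and the separate normalization cannot be told apart here, and their part in the place of *Itga5* was not tested.

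**Figure D1:**
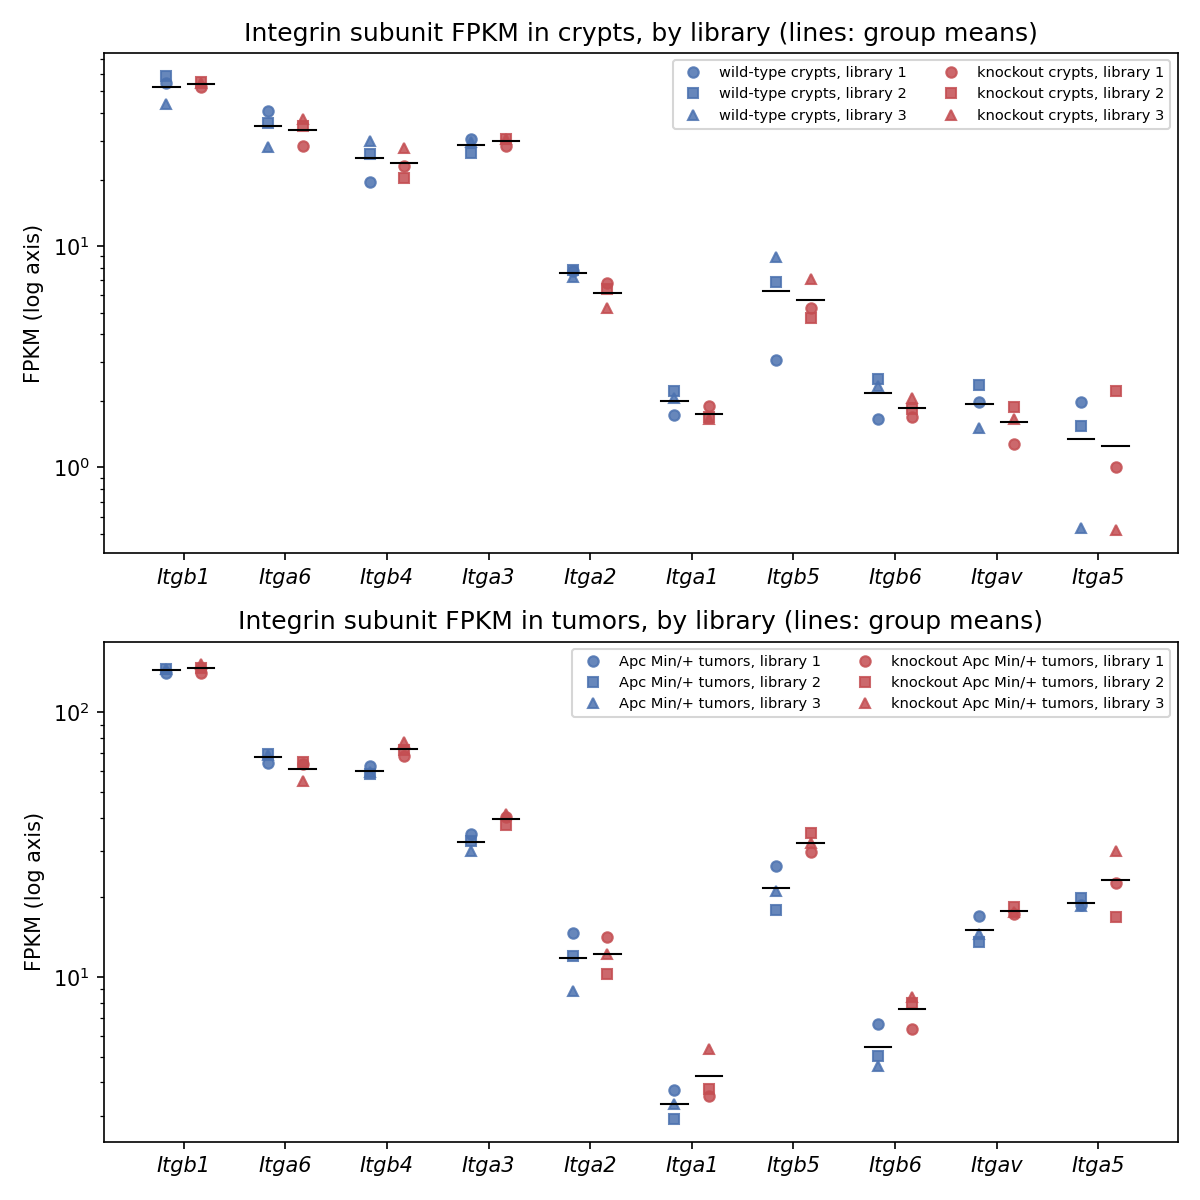
FPKM of the 10 integrin subunit genes on a log axis in crypts (upper panel) and colon tumors (lower panel); each symbol is a library, blue for controls and red for knockouts, and lines are group means of 3. *Itgb1* was highest in every library of both tables, and the tumor groups stood apart for *Itgb4*, *Itga3*, *Itgb5* and *Itgav*.

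In small intestinal crypts no integrin gene differed between genotypes beyond the spread of the libraries by the adjusted test. By limma with Benjamini-Hochberg adjustment, 0 of 10 had an adjusted p under 0.05, as did 0% of all 14176 tested genes, and voom on recovered fragments also gave 0. At an unadjusted p under 0.05 there were 0 of 10 in either direction, against 3.48% of all tested genes higher and 2.36% lower in knockouts; with quantile normalization 1 (*Itga2*) was lower, against 2.31% of all tested genes. The groups did not overlap for 0 of 10 with the knockouts higher (6.79% of all tested genes) and for 1 of 10 with the knockouts lower (5.15%). The median log2 fold change of the 10 genes was -0.09, with 2 positive and 8 negative, beside a median of 0.01 over all tested genes. The signs depended on the scaling: 5 were positive with libraries rescaled to the same FPKM total, which moved the median of all genes to 0.14, and 0 with quantile normalization. The 50 highest genes held 39.9% to 53.4% of the FPKM total of a crypt library, so rescaling to the same total rests largely on them.

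The gene whose crypt groups did not overlap was *Itga2* (ENSMUSG00000015533, GRCm38 chr13:114833081-114932100, minus strand), the alpha chain of a collagen receptor. Its FPKM was 7.73, 7.83 and 7.22 in wild-type crypts 1, 2 and 3 and 6.83, 6.38 and 5.27 in knockout crypts. No knockout library reached the lowest wild-type one, and knockout crypts 3 had the least. The log2 fold change was -0.29 (95% confidence interval -0.59 to 0.02), which did not pass (limma with Benjamini-Hochberg, adjusted p = 0.852). It kept its sign in every alternative run, between -0.36 and -0.15. In bulk RNA, fewer cells that express a gene and less RNA per cell cannot be told apart.

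The laminin receptor chains, by which crypt epithelium holds to its basement membrane, had overlapping FPKM in both genotypes. *Itga6* had an FPKM of 40.7, 36.0 and 28.0 in wild-type crypts and 28.3, 34.9 and 37.4 in knockout crypts. *Itgb4* had 19.5, 26.0 and 29.8 FPKM in wild-type crypts and 22.9, 20.2 and 27.8 in knockout crypts. In wild-type crypts *Itga6* was highest in library 1 and lowest in library 3, and *Itgb4* the reverse. The ratio of *Itgb4* to *Itga6* FPKM therefore ran from 0.479 in wild-type crypts 1 to 1.06 in wild-type crypts 3, a range that held all 3 knockout ratios (0.579 to 0.812). *Itga3* had an FPKM of 26.3 to 30.4 in wild-type crypts and 28.3 to 30.6 in knockout crypts. *Itgb1*, the partner of most alpha chains, had 54.6, 58.9 and 43.8 FPKM in wild-type crypts and 52.3, 55.1 and 54.3 in knockout crypts, with the low value again in wild-type crypts 3. The log2 fold changes of these 4 genes lay between -0.07 and 0.05.

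The chains that bind vitronectin and fibronectin were low in crypts and varied between libraries of 1 group. *Itgb5* had an FPKM of 3.05, 6.87 and 8.89 in wild-type crypts and 5.27, 4.74 and 7.11 in knockout crypts. Its wild-type values spanned those of the knockouts, and its log2 fold change of -0.03 had a 95% confidence interval of -0.87 to 0.81. Without wild-type crypts 1 the log2 fold change of *Itgb5* was -0.44, and without wild-type crypts 3 it was 0.26. *Itga5*, the fibronectin receptor chain, had 0.53 to 1.98 FPKM in wild-type crypts and 0.52 to 2.23 in knockout crypts, and *Itgav* had 1.51 to 2.35 and 1.27 to 1.87. *Itgb6*, a beta chain of epithelium that activates TGF-beta, had 1.65 to 2.52 FPKM in wild-type crypts and 1.69 to 2.06 in knockout crypts. *Itga1*, a collagen receptor chain, had 1.72 to 2.22 and 1.65 to 1.89. With wild-type crypts 3, the wild-type library lowest in stomach genes, as the lone control the median log2 fold change of the 10 was -0.09, and no p is given because 1 library shows no spread. In that fit *Itga6*, *Itgav* and *Itga5* changed sign, to log2 fold changes of 0.25, 0.05 and 0.65, and those of *Itgb5*, *Itgb4* and *Itgb1* were -0.62, -0.34 and 0.30.

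**Figure D2:**
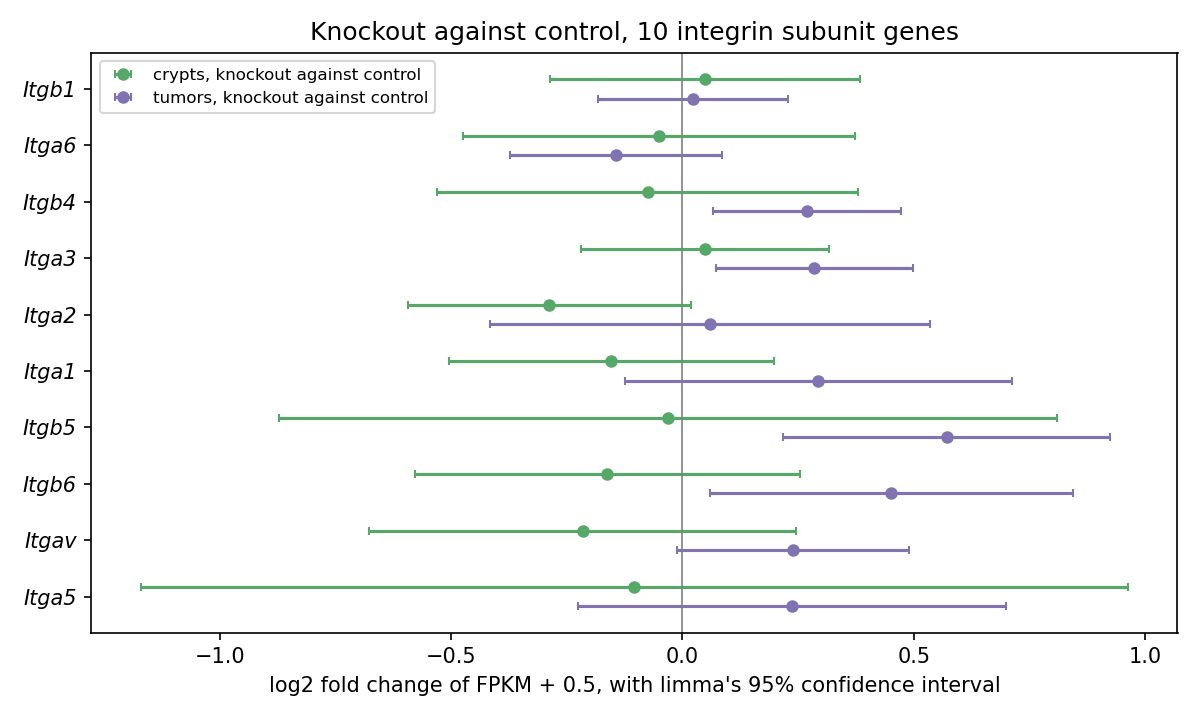
Log2 fold change of FPKM + 0.5, knockout against control, for each integrin gene in crypts (green) and tumors (purple), with limma's 95% confidence interval from 3 libraries per group. All 10 crypt intervals hold 0, while those of *Itgb4*, *Itga3*, *Itgb5* and *Itgb6* in tumors lie above 0 before adjustment for multiple tests.

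In colon tumors 9 of 10 integrin genes had higher mean values in the knockouts, although 0 of 10 passed adjustment. By limma with Benjamini-Hochberg adjustment, 0 of 10 integrin genes and 0% of the 16743 tested genes had an adjusted p under 0.05, and voom also gave 0. At an unadjusted p under 0.05, 4 of 10 (*Itgb5*, *Itga3*, *Itgb4* and *Itgb6*) were higher in knockouts, against 8.46% of all tested genes, and 0 of 10 were lower, against 6%. With quantile normalization 2 were higher (*Itgb5* and *Itgb6*), against 6.67% of all tested genes, and 1 was lower (*Itgb1*), against 7.66%. The groups did not overlap for 4 of 10 with the knockouts higher (*Itgb5*, *Itga3*, *Itgb4* and *Itgav*), against 11.4% of all tested genes, and for 0 of 10 with the knockouts lower, against 10.6%. The median log2 fold change of the 10 genes was 0.25, with 9 positive and 1 negative, beside a median of 0.01 over all tested genes.

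These counts depended on the scaling and on the libraries. At an unadjusted p under 0.05, 1417 tested genes were higher and 1004 lower in knockout tumors as deposited, and 729 were higher and 1791 lower with libraries rescaled to the same FPKM total. With that rescaling 7 of 10 integrin genes were positive, their median was 0.15 beside -0.09 over all tested genes, and 1 (*Itgb5*) of the 4 genes kept an unadjusted p under 0.05. Leaving out 1 library kept between 1 and 4 of the 4, with 1 (*Itgb5*) kept without APCmin/+ tumor 3 and 2 without APCmin/+ tumor 2. Without the pair of tumors that expressed *Xist*, 0 of the 4 kept it, and the log2 fold changes of *Itgb5*, *Itgb6*, *Itga3* and *Itgb4* were 0.56, 0.28, 0.20 and 0.21 there and 0.57, 0.45, 0.29 and 0.27 with all libraries. In the libraries low in *Hoxd13*, APCmin/+ tumor 1 against knockout tumors 1 and 2, the median of the 10 genes was 0.06. In those high in *Hoxd13*, APCmin/+ tumors 2 and 3 against knockout tumor 3, the median was 0.39. These fits were chosen after the values had been seen and rest on a lone library in 1 genotype, so only their log2 fold changes are given. All 4 genes had a positive log2 fold change in every alternative run.

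*Itgb5* (ENSMUSG00000022817, GRCm38 chr16:33829665-33949338, plus strand), the beta chain of a vitronectin receptor, had the largest log2 fold change of the 10 genes in tumors. Its FPKM was 26.3, 17.9 and 21.2 in APCmin/+ tumors 1, 2 and 3 and 29.7, 34.9 and 32.1 in knockout tumors 1, 2 and 3. All knockout tumors were above all control tumors, and the control nearest to them was APCmin/+ tumor 1. The mean FPKM was 21.8 ± 4.24 (SD, n = 3) in controls and 32.3 ± 2.58 (SD, n = 3) in knockouts, 1.48-fold higher. The log2 fold change was 0.57 (95% confidence interval 0.22 to 0.93), with an adjusted p of 0.269 by limma with Benjamini-Hochberg. An exact two-sided permutation test gave p = 0.1, the smallest that 3 libraries against 3 allow. Over the alternatives run with all or all but 1 library, the log2 fold change stayed between 0.44 and 0.71, and in the libraries low in *Hoxd13* it was 0.29.

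*Itgb6* (ENSMUSG00000026971, GRCm38 chr2:60598292-60722643, minus strand) encodes another beta partner of *Itgav*. It had an FPKM of 6.63, 5.03 and 4.64 in APCmin/+ tumors and 6.36, 8.0 and 8.38 in knockout tumors. The groups overlapped, because APCmin/+ tumor 1 was above knockout tumor 1. Its log2 fold change was 0.45 (95% confidence interval 0.06 to 0.84; limma with Benjamini-Hochberg, adjusted p = 0.32). Over the alternatives it lay between 0.10, in the libraries low in *Hoxd13*, and 0.74, in those high in it. *Itgav* itself had an FPKM of 17.1, 13.5 and 14.5 in controls and 17.3, 18.4 and 17.6 in knockouts. These groups did not overlap, but APCmin/+ tumor 1 lay within 1 FPKM of every knockout except knockout tumor 2. Its log2 fold change was 0.24 (95% confidence interval -0.01 to 0.49).

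RefSeq promoters in the mouse build GRCm38.p6 were found for 8 of the 10 genes, and for *Itga3* among them no stretch was taken because 34 of its bases lie in annotated exons. The stretches of *Itgb5* and *Itgb6*, the members with the largest log2 fold changes in tumors, are shown beside that of *Itgb1*. With FPKM as deposited, the log2 fold change of *Itgb1* in tumors was nearest to 0. Each stretch is the 150 bases directly before the first annotated exon base, 5′ to 3′ on the strand of the gene. They lie at chr16:33829515-33829664 (plus strand), chr2:60722644-60722793 (minus strand) and chr8:128685504-128685653 (plus strand). Capitals mark matches, on either strand, to 5 short motifs: the GC box GGGCGG, the TCF/LEF core CTTTGA, the TEAD core GGAATG, the AP-1 site TGAGTCA and the ETS core CCGGAAG.
Itgb5: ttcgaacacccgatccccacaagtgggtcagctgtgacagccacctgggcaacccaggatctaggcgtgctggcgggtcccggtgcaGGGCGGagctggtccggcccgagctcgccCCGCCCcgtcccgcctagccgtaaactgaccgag
Itgb6: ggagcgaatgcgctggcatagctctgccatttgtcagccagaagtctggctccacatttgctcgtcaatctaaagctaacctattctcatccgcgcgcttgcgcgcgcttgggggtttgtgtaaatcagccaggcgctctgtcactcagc
Itgb1: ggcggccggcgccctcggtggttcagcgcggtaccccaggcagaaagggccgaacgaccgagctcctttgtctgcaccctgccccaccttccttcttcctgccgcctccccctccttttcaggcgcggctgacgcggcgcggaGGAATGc
The *Itgb5* stretch held 2 GC boxes, one on each strand, and *Itgb1* held 1 TEAD core. The *Itgb6* stretch held 0 matches, with 55.3% of its bases G or C, against 69.3% in *Itgb5* and 70% in *Itgb1*. Of 32851 RefSeq promoters, 28.6% held a GC box in the 150 bases before the start, 7.93% a TCF/LEF core, 7.59% a TEAD core, 2.84% an AP-1 site and 5.52% an ETS core. A match describes the letters only, and binding was not measured.

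The laminin receptor chains differed from each other in tumors. *Itgb4* (ENSMUSG00000020758, GRCm38 chr11:115974709-116008412, plus strand), the hemidesmosomal beta chain, had an FPKM of 63.0, 58.4 and 59.3 in APCmin/+ tumors and 68.5, 72.2 and 77.5 in knockout tumors. Its only partner, *Itga6* (ENSMUSG00000027111, GRCm38 chr2:71745616-71858416, plus strand), had an FPKM of 64.3, 69.7 and 69.1 in APCmin/+ tumors and 64.1, 64.9 and 55.1 in knockout tumors. For *Itgb4* all knockouts were above all controls, whereas for *Itga6* the groups overlapped and the lowest library was knockout tumor 3. The log2 fold change was 0.27 for *Itgb4* (95% confidence interval 0.07 to 0.47; limma with Benjamini-Hochberg, adjusted p = 0.3) and -0.14 for *Itga6* (95% confidence interval -0.37 to 0.09). *Itga6* was the negative member of the 10, and in the libraries low in *Hoxd13* its log2 fold change was 0.00.

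The order of these partners was thus exchanged between the tumor groups. In APCmin/+ tumors *Itga6* was above *Itgb4* with ranges that did not overlap, and in knockout tumors *Itgb4* was above *Itga6*, again without overlap. The ratio of *Itgb4* to *Itga6* FPKM, which a constant factor per library does not change, was 0.979, 0.839 and 0.859 in controls and 1.07, 1.11 and 1.41 in knockouts. All 3 control tumors were below 1 and all 3 knockout tumors above 1, with knockout tumor 3 the farthest. The ratio was chosen after the values had been seen and is a description, without a test.

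*Itga3* (ENSMUSG00000001507, GRCm38 chr11:95044474-95076801, minus strand) encodes an alpha chain for laminins of the basement membrane. It had an FPKM of 34.8, 32.7 and 30.0 in APCmin/+ tumors and 40.2, 37.4 and 41.3 in knockout tumors. All knockouts were above all controls, by 22.1% on average. The log2 fold change was 0.29 (95% confidence interval 0.07 to 0.50; limma with Benjamini-Hochberg, adjusted p = 0.296). Relative to *Itga6*, its FPKM ratio was 0.54, 0.469 and 0.434 in controls and 0.627, 0.576 and 0.75 in knockouts, again without overlap.

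*Itgb1* (ENSMUSG00000025809, GRCm38 chr8:128685654-128733200, plus strand) had the log2 fold change nearest to 0 among the 10 in tumors with FPKM as deposited. Its FPKM was 141, 146 and 146 in APCmin/+ tumors and 141, 147 and 152 in knockout tumors. The groups overlapped, with knockout tumors 2 and 3 above every control and knockout tumor 1 among them, and the log2 fold change of 0.02 had a 95% confidence interval of -0.18 to 0.23. The sign was negative with the same FPKM total, with quantile normalization, without the 50 highest genes and with voom on library totals. With quantile normalization the log2 fold change was -0.21, with an unadjusted p of 0.0465. As the other beta chains had higher values, the share of *Itgb1* in the summed FPKM of the 4 beta chains was 59.5%, 64.2% and 63.2% in controls and 57.4%, 56.2% and 56.3% in knockouts. All knockout shares of *Itgb1* were below all control shares, and those of *Itgb5* were above (9.37% on average in controls and 12.4% in knockouts). In crypts the shares of all 10 genes within their chain overlapped between genotypes.

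**Figure D3:**
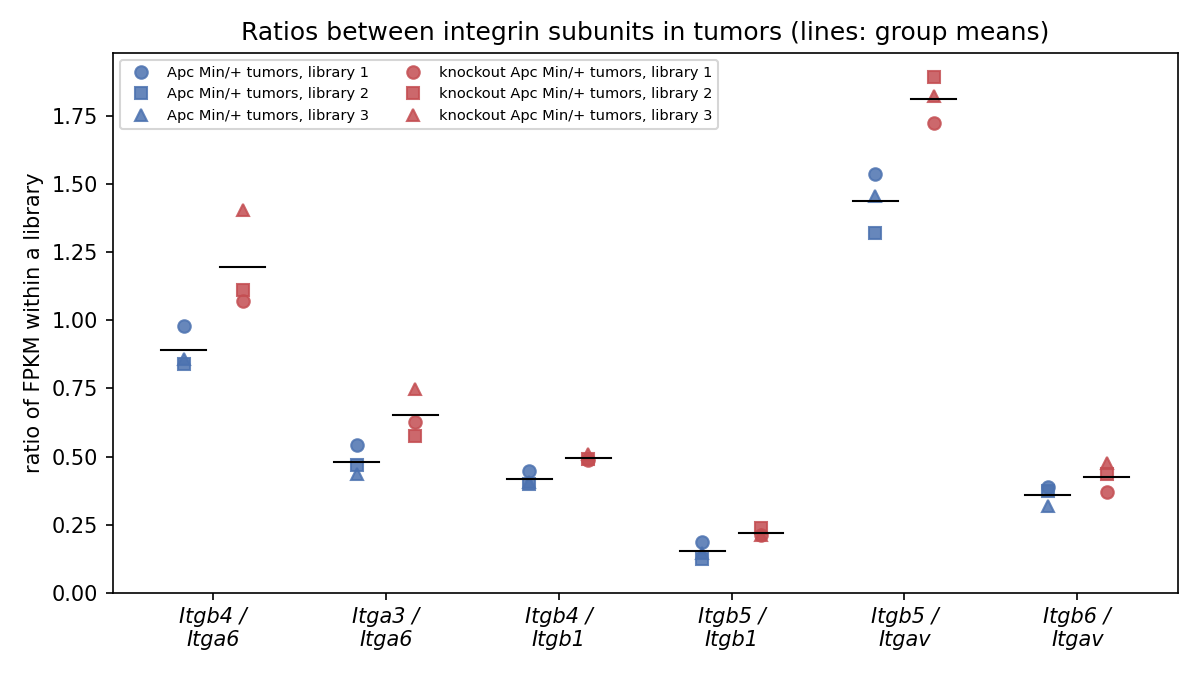
Ratios of FPKM between pairs of integrin genes within each tumor library, with APCmin/+ controls in blue, knockouts in red and lines for the means of 3. The ratio of *Itgb4* to *Itga6* was 0.839 to 0.979 in controls and 1.07 to 1.41 in knockouts, while that of *Itgb6* to *Itgav* overlapped.

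The remaining alpha chains overlapped between tumor groups. *Itga5* had an FPKM of 18.8, 20 and 18.6 in APCmin/+ tumors and 22.7, 16.9 and 30.0 in knockout tumors, so that the knockouts lay on both sides of the controls. *Itga1* had an FPKM of 3.76, 2.91 and 3.31 in controls and 3.55, 3.79 and 5.36 in knockouts, with knockout tumor 3 alone well above the rest. *Itga2* had an FPKM of 14.6, 12 and 8.85 in controls and 14.2, 10.3 and 12.2 in knockouts. The controls of *Itga2* spanned every knockout, and its log2 fold change of 0.06 turned negative with the same FPKM total and without APCmin/+ tumor 3 (-0.13). The log2 fold changes were 0.24 for *Itga5* (95% confidence interval -0.23 to 0.70) and 0.29 for *Itga1* (95% confidence interval -0.12 to 0.71). Without knockout tumor 3 they were 0.04 and 0.13.

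Markers of epithelium had higher values in the knockout tumors. Log2 fold changes were also positive for 7 of 8 fibroblast, 3 of 5 smooth muscle, 4 of 5 endothelial and 2 of 5 tested leukocyte markers. The summed FPKM of 9 epithelial markers, with *Krt8* the most abundant, was 4708, 4758 and 4176 in APCmin/+ tumors and 5567, 5384 and 5737 in knockout tumors. All 9 had positive log2 fold changes and groups that did not overlap (11.4% of all tested genes were apart this way), and 3 had an unadjusted p under 0.05 (8.46% of all tested genes were higher by it). Of the 8 small intestinal crypt markers *Muc2* was higher in every knockout, while *Lgr5*, *Lyz1*, *Defa24*, *Defa17*, *Mmp7* and *Pla2g2a* overlapped. *Olfm4*, with a mean FPKM of 0.145, was lower in every knockout. *Car1* of the colon markers and *Krt20*, itself among the 9, were also higher in every knockout. FPKM was 114 to 151 in controls and 259 to 419 in knockouts for *Muc2* and 47.8 to 92.9 and 112 to 125 for *Krt20*. *Car1* had a log2 fold change of 1.03. The colon genes *Car4* (4.49 to 10.9 and 8.85 to 11.8) and *Aqp8* (3.95 to 7.17 and 5.52 to 8.73) overlapped. The summed FPKM of 7 colon markers overlapped too (166 to 244 and 224 to 340). Per 1000 FPKM of the 9 epithelial markers, *Itga3* was 7.39, 6.86 and 7.18 in controls and 7.22, 6.95 and 7.20 in knockouts, and *Itgb4* was 13.4, 12.3 and 14.2 and 12.3, 13.4 and 13.5. On this relative scale the groups of *Itga3*, *Itgb4*, *Itgb6* and *Itgb5* overlapped, the last with 5.58, 3.76 and 5.07 in controls and 5.34, 6.48 and 5.60 in knockouts. The result depended on the marker. Per 1000 FPKM of *Epcam* alone, the knockouts stayed above the controls for *Itga3* (40.5 to 43.0 and 45.8 to 46.9) and *Itgb5* (22.2 to 32.5 and 34.8 to 42.7). Per 1000 FPKM of *Krt20* alone, they were below the controls for *Itga3* (374 to 684 and 300 to 358), *Itgb4* (678 to 1223 and 579 to 672) and *Itgb5* (283 to 430 and 265 to 280). *Itga3* overlapped per each of the other 7 markers, and *Itgb5* was above the controls per *Cdh1* and *Krt18* and overlapped per the other 5. *Itgb4* was above the controls per *Cdh1* (228 to 233 and 235 to 278) and overlapped per each of the 7 markers other than *Cdh1* and *Krt20*. *Itga6* was lower in all knockouts than in all controls per summed epithelial marker FPKM, with means of 14.9 and 11.1, and per each of these markers except *Epcam*. *Itgb1* was also lower per summed marker FPKM (means 31.9 and 26.4) but overlapped per *Epcam*, *Cdh1*, *Krt18* and *Cldn3*.

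The summed FPKM of 8 fibroblast markers, with *Vim* the most abundant, was 526, 368 and 455 in controls and 524, 624 and 570 in knockouts, with 7 of 8 positive and 4 higher at an unadjusted p under 0.05 (8.46% of all tested genes), and the sums overlapped. Per 1000 FPKM of these, *Itgb5* was 50, 48.6 and 46.5 in controls and 56.8, 55.9 and 56.4 in knockouts. This rested on *Vim*, the only negative marker of the 8, and without it the *Itgb5* groups overlapped (72.4, 78.0 and 96.7 in controls and 82.0, 74.4 and 84.8 in knockouts). The summed FPKM of 5 smooth muscle markers (102 to 125 in controls and 128 to 142 in knockouts) did not overlap, but *Acta2* made up most of it and 3 of the 5 were positive and 2 negative. That of 5 endothelial markers (23.4 to 28.5 and 30.1 to 30.5) did not overlap either, with 4 positive and 1 negative, and *Cdh5*, the most abundant, overlapped while *Pecam1* did not. Sums of leukocyte markers overlapped (432 to 579 and 347 to 558, *Lyz2* the most abundant), although *S100a8* among them was lower in all knockouts (FPKM 66.8 to 153 and 31.2 to 64.7). Whether cell composition or tumor position had a part in the integrin values was not tested.

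**Figure D4:**
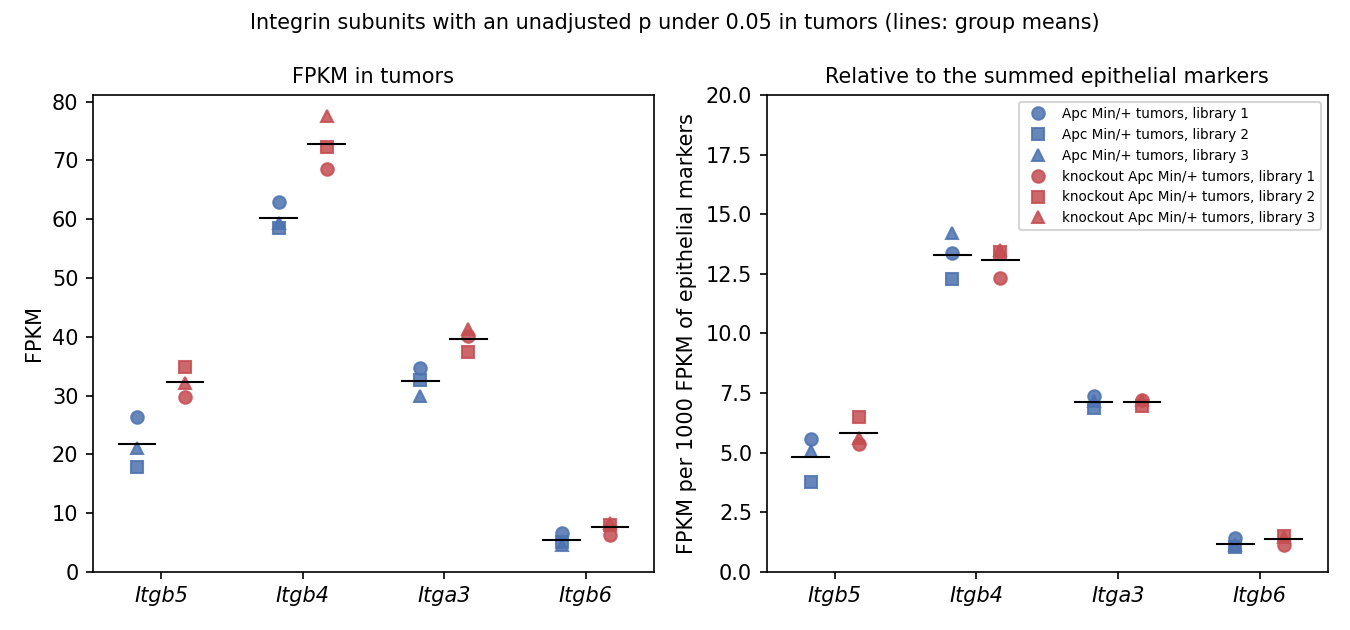
*Itgb5*, *Itgb4*, *Itga3* and *Itgb6* in each tumor library, as FPKM (left) and per 1000 FPKM of 9 summed epithelial markers (right), with controls in blue, knockouts in red and lines for the means of 3. *Itga3* was apart between groups in FPKM (30.0 to 34.8 and 37.4 to 41.3) and overlapped relative to the summed markers (6.86 to 7.39 and 6.95 to 7.22).

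Other integrin subunits, many of them chains of leukocytes, platelets and fibroblasts, were 17 in number. In tumors 15 were tested, of which 10 were positive and 5 negative with a median log2 fold change of 0.15, and at an unadjusted p under 0.05 there were 2 higher and 0 lower, against 8.46% and 6% of all tested genes. *Itga11*, a collagen receptor chain of fibroblasts, had an FPKM of 1.08, 1.13 and 1.11 in APCmin/+ tumors and 1.93, 1.81 and 2.10 in knockout tumors. The platelet and endothelial chain *Itgb3*, another partner of *Itgav*, had 9.18, 8.33 and 6.83 FPKM in controls and 12.3, 9.36 and 14.8 in knockouts. Both genes were above the controls in every knockout, with log2 fold changes of 0.60 and 0.54 (limma with Benjamini-Hochberg, adjusted p = 0.269 and 0.308). *Itgb8*, a further partner of *Itgav*, was below them in every knockout, with 2.61 to 2.87 FPKM in controls and 2.04 to 2.47 in knockouts. The others whose mean FPKM reached 1 in tumors, *Itgb2* (13.1), *Itgax* (5.99), *Itga9* (3.91), *Itgal* (3.56), *Itgb7* (3.13), *Itgb2l* (2.91), *Itgae* (2.53), *Itgam* (1.81) and *Itga7* (1.64), all overlapped. In crypts 10 were tested, 2 positive and 8 negative with a median of -0.19. At an unadjusted p under 0.05 there were 0, against 3.48% of all tested genes higher and 2.36% lower. The summed FPKM of 6 leukocyte markers was 24.6 to 25.4 in wild-type crypts and 18.4 to 23.9 in knockout crypts, with 1 positive and 4 negative. Of the 10 subunits, *Itgae* (mean FPKM 11.3) and *Itgb7* (9.91), the pair of chains of intraepithelial lymphocytes, were the highest. *Itgb2* (5.0), *Itgax* (1.94), *Itgal* (1.63) and *Itgb2l* (1.58) were the others whose mean FPKM reached 1 there, and all overlapped between genotypes.

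Genes of the hemidesmosome and of laminin-332, the anchor and the ligand of the *Itga6* and *Itgb4* receptor, were 7. In tumors all 7 were positive, with a median log2 fold change of 0.23. Of these, 3 had an unadjusted p under 0.05, against 8.46% of all tested genes higher by it. The same 3 had groups that did not overlap, against 11.4% of all tested genes with the knockouts higher. *Plec*, which links *Itgb4* to keratin filaments, had an FPKM of 39.2, 30.5 and 30.8 in controls and 44.1, 48.0 and 47.3 in knockouts (log2 fold change 0.47). The laminin-332 chains *Lama3* and *Lamb3* had log2 fold changes of 0.30 and 0.29. In crypts 6 were tested, 6 negative and 0 positive, with a median of -0.23. At an unadjusted p under 0.05 there were 0, against 3.48% of all tested genes higher and 2.36% lower.

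Of 30 genes that activate integrins or build focal adhesions, 23 were positive and 7 negative in tumors, with a median log2 fold change of 0.10 and 4 higher and 0 lower by an unadjusted p under 0.05, against 8.46% and 6% of all tested genes. The smallest p values belonged to the adaptors *Tns2* (log2 fold change 0.50) and *Bcar1* (0.30) and to *Cav1* of caveolae (0.60), whose groups did not overlap. In crypts 25 were tested, 9 positive and 16 negative with a median of -0.08. At an unadjusted p under 0.05 there were 0, against 3.48% of all tested genes higher and 2.36% lower.

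Matrix ligands of integrins were the list with the highest median in tumors, 0.27 over 22 tested genes, of which 18 were positive and 4 negative, with 7 higher and 1 lower by an unadjusted p under 0.05, against the same 8.46% and 6%. The collagen IV chains of basement membranes, *Col4a2* and *Col4a1*, had log2 fold changes of 0.57 and 0.55, and the laminin chain *Lamb1* 0.31. *Lama5*, the laminin chain of gut epithelial basement membranes, was the 1 gene lower by an unadjusted p under 0.05 (log2 fold change -0.23). It was named after its value had been seen, and the lowest log2 fold change among the 4 negative genes was -0.34. In crypts 9 ligands were tested, 1 positive and 8 negative with a median of -0.13 and 2 lower at an unadjusted p under 0.05, against 2.36% of all tested genes. These were *Col3a1* (log2 fold change -0.54) and again *Lama5* (-0.70, FPKM 1.89, 2.70 and 4.76 in wild-type crypts and 1.88, 1.34 and 1.65 in knockout crypts). *Col3a1* had a mean FPKM of 0.746 in wild-type crypts and 0.361 in knockout crypts. It reached the limit of 0.5 only through the wild-type group, so no conclusion is drawn from its p or from the count that holds it. Over these 4 lists 0 genes had an adjusted p under 0.05 in either tissue by limma with Benjamini-Hochberg.

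The genes whose FPKM pattern over the 12 libraries was most like that of *Itgb5* were *Myo15b*, *Dgka* and *Aplp1*. Their root mean square difference from *Itgb5*, in log2(FPKM + 0.5) centered within each table, was 0.158, 0.158 and 0.159, where the median over 11562 genes was 0.448 and the own spread of *Itgb5* was 0.396. Their log2 fold changes in tumors were 0.61, 0.39 and 0.44. Because the genes were picked for likeness over these same libraries, the shared sign largely follows from the choice.

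Some integrin genes share exon bases with other genes, and the sources used here do not state whether counting used the strand. *Itgb4* shares 537 bases with the antisense gene *B230344G16Rik* (mean FPKM 0.929 in tumors) and *Itgav* 634 bases with the antisense gene *Gm13684* (0.121). *Itga1* shares 685 of its 18599 bases with *Gm49395* on its own strand, whose mean FPKM was 1.2 in crypts and 0.289 in tumors. What part fragments on the shared bases have in the low FPKM of *Itga1* in crypts (mean 1.87) was not tested.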

How the data were processed

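Bulk RNA-seq of 12 mouse libraries was analysed from the FPKM that the authors deposited per gene and library, in a separate table for each tissue. According to the paper's methods, paired-end reads were aligned with Hisat2, counted on genes with featureCounts and tested with DESeq2; the submitters' processing notes name cutadapt, HISAT2, Cufflinks 2.2.1, DESeq2 and mm10. Annotation and use of strand are not given in the sources used here. Times gene length, 100% of low FPKM fell on whole steps (tolerance 0.02), and such a step was taken as 1 fragment, giving 14457896 to 16156712 fragments per library. The start and end of all 10 integrin genes are those of GENCODE M21.

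In R 4.3.3, limma 3.58.1 was fitted to each table alone, with a variance trend and no covariate, using log2(FPKM + 0.5) of genes whose mean FPKM reached 0.5. P-values were Benjamini-Hochberg adjusted over all tested genes at a threshold of 0.05, after the procedure had been tested on simulated data. Python 3.11.15 with numpy 2.4.6, pandas 2.3.3 and scipy 1.17.1 was used for sums, ratios and exact permutation tests. Labels number the libraries and do not name the animals, so p-values measure the spread between these libraries.

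Named genes were the 10 members, *Ctnnb1*, from each further list the 3 tested genes with the smallest p in tumors and other integrin subunits whose mean FPKM reached 1, and the 3 genes nearest to the member with the largest log2 fold change. Outside this rule, genes of the marker lists, *Col3a1* and *Lama5* among the matrix ligands, and genes that share exon bases with members were named. Members and lists were chosen with earlier results of these data known. Alternatives covered pseudocounts, filters, scalings, variance models, voom, a replicate block and leaving out libraries; voom with the library sizes that the FPKM imply and the fits by stomach genes and *Hoxd13*, and ratios to markers, were chosen after seeing the data.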

Additional observations from a re-analysis of the deposited data

How the results depend on the processing

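With 3 libraries per group, no alternative gave an integrin gene an adjusted p under 0.05 in either tissue (limma or voom with Benjamini-Hochberg). The number of all tested genes passing was 0 to 3 in crypts with 1 library left out (3 without wild-type crypts 3) and 1 in tumors with no variance trend. The median log2 fold change of the 10 genes was -0.218 to -0.0294 in crypts and 0.176 to 0.316 in tumors with 1 library left out. With the same FPKM total it was 0.0294 in crypts and 0.145 in tumors, with quantile normalization 0.153 in tumors, without the 50 highest genes 0.144 in tumors, and in the tumors low and high in *Hoxd13* 0.0616 and 0.394. Signs turned as follows. With the same FPKM total the log2 fold changes in crypts were 0.0959 for *Itga6*, 0.0712 for *Itgb4* and 0.109 for *Itgb5*, and in tumors -0.0468 for *Itga2* and -0.0885 for *Itgb1*. With quantile normalization they were -0.0371 for *Itga3* and -0.0803 for *Itgb1* in crypts and -0.212 for *Itgb1* in tumors. Without the 50 highest genes they were -0.0123 for *Itga3* and -0.0118 for *Itgb1* in crypts, and -0.0477 for *Itga2* and -0.0893 for *Itgb1* in tumors. Voom on library totals gave -0.0225 for *Itgb1* in tumors, and leaving out both tumors with *Xist* gave -0.133 for *Itga2*. Against wild-type crypts 3 alone, *Itga6*, *Itga5* and *Itgav* were 0.246, 0.646 and 0.0536, and in the tumors low in *Hoxd13*, *Itga1*, *Itga2* and *Itga6* were -0.0302, -0.268 and 0.00358. With 1 library left out, the crypt ranges were -0.0128 to 0.0895 for *Itga3*, -0.198 to 0.0683 for *Itga6*, -0.482 to 0.227 for *Itga5*, -0.0732 to 0.138 for *Itgb1*, -0.241 to 0.0567 for *Itgb4* and -0.44 to 0.26 for *Itgb5*, and the tumor ranges -0.127 to 0.22 for *Itga2*, -0.0025 to 0.0501 for *Itgb1*, 0.0376 to 0.439 for *Itga5*, 0.13 to 0.396 for *Itga1* and 0.356 to 0.592 for *Itgb6*. The causes were not tested. Between libraries of the same replicate number the correlation of deviations was -0.12 to 0.04 in crypts and -0.09 to 0.05 in tumors. These values cannot exclude a pairing, and number 3 of both tumor genotypes expressed *Xist*. With a replicate block the median was -0.09 in crypts and 0.25 in tumors, and 2 of the 4 tumor genes (*Itga3* and *Itgb5*) kept an unadjusted p under 0.05.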
